A study of Mus musculus with 9 samples.

Results

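The genes described here encode the enzymes and regulators that cells use against oxidants and that make, recycle or use glutathione. They were chosen by gene symbol: 35 genes were listed by role, and 32 of them have a probe set that names 1 symbol in the platform table. Of these, 31 reached the signal level needed for a test, among 12735 genes tested of 18193 measured. Each gene is represented by its brightest probe set, by the mean of the 9 arrays.

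The study asked which transcripts change in fat cells when the transcription factor Ebf1, an early B cell factor, is lowered. The cells were mature 3T3-L1 adipocytes, fat cells obtained in culture from a mouse fibroblast-like line. They received lentivirus with hairpin 1 against Ebf1, lentivirus with hairpin 2 against Ebf1, or lentivirus with a scrambled hairpin, on 3 arrays each. All 3 groups went through 3 to 4 rounds of infection and at least 8 days in puromycin at 5 µg/ml, so uninfected cells were not measured. RNA was amplified with the NuGEN Ovation WTA Pico kit, made for small inputs, and labelled with biotin. The arrays of a group are numbered as repeats, and the labels do not say whether these are separate cultures. The p-values then reflect only how these arrays vary, possibly for technical reasons, and the number of arrays limits the precision.

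Oxidant defence in animal cells is organised around the transcription factor NRF2, which its partner KEAP1 marks for degradation until oxidants or electrophiles modify KEAP1. NRF2 then enters the nucleus, pairs with small MAF proteins and binds antioxidant response elements near genes for glutathione synthesis, quinone reduction and the thioredoxin system. Superoxide dismutases, catalase, glutathione peroxidases and peroxiredoxins remove oxidants directly, and fat cells, which oxidise and store lipid, carry large amounts of several of them.

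Short promoter stretches are shown for 3 of the listed genes whose promoters hold the letters of the antioxidant response core, TGACNNNGC. The others that hold these letters are named below. The sequences are from RefSeq on build GRCm38.p6, 5′ to 3′ on the plus strand, and the capitals mark the match, which reads as TGACNNNGC on the opposite strand.
Gclm, chr3:122245373-122245481: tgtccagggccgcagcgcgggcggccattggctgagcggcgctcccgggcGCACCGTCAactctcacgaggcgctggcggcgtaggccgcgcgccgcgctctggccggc
Txnrd1, chr10:82859064-82859172: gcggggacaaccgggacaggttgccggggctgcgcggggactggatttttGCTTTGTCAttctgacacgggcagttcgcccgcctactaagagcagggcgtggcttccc
Prdx1, chr4:116685416-116685524: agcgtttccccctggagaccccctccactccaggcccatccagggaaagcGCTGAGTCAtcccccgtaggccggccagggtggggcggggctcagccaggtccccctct
The matches begin 134 bases before the start of Gclm, 92 before a start of Txnrd1 and 133 before that of Prdx1. In Prdx1 the match overlaps the letters of the AP-1 core, TGANTCA.

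Promoter windows of 300 bases, 250 before to 50 after each start, were found for 29 of the 35 genes. On either strand, TGACNNNGC lies in the windows of 7 of those 29 genes: Gclm, Mgst1, Nfe2l2, Prdx1, Sod1, Srxn1 and Txnrd1. Over all promoters in the table the letters occur in 12.4% of 32851 windows, and in 14.0% of 27025 genes. The core letters of early B cell factor sites, CCCNNGGG, lie in the windows of 5 of the 29 genes, namely Cat, Gclm, Gpx4, Mgst3 and Nfe2l2, against 15.4% of all genes. A match in a window is a description of its letters and not a bound site.

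Ebf1 itself was lower with each hairpin. Its signal was 9.32, 9.54 and 9.45 log2 units on the hairpin 1 arrays and 8.90, 8.72 and 9.20 on the hairpin 2 arrays, against 10.12, 10.15 and 10.31 on the scrambled arrays. The falls were 1.69-fold with hairpin 1 (log2 difference -0.75, limma adjusted p = 0.000102) and 2.38-fold with hairpin 2 (-1.25, adjusted p = 2.98e-07). The cells carried adipocyte markers: the mean of the 8 measured markers was 12.59 to 12.65 on hairpin 1 arrays, 12.57 to 12.59 on hairpin 2 arrays and 12.57 to 12.64 on scrambled arrays. Several of these markers, such as Adipoq at 14.8 in each group, lie near the top of the array's range, where differences are compressed. Of the 7 tested, 1, the lipid droplet gene Cidec, was lower with hairpin 2 (-0.25, adjusted p = 0.00255). Lep lay near the floor in all groups, at means of 5.28, 5.22 and 5.14 with hairpin 1, hairpin 2 and scrambled. Markers of preadipocytes and fibroblasts moved with the hairpins. The mean of 7 such markers was 10.45 to 10.62 with hairpin 1 and 10.58 to 10.63 with hairpin 2, against 9.76 to 9.88 with scrambled. Of the 6 tested, 6 were higher with hairpin 1, and with hairpin 2 5 were higher and 1, Dlk1, was lower. Their part in the results below was not tested, and fewer cells of a type cannot be told apart from less RNA per cell in such samples. Macrophage and leukocyte markers averaged 5.97 to 6.10, 6.10 to 6.22 and 6.02 to 6.05 log2 units with hairpin 1, hairpin 2 and scrambled. Ptprc, Adgre1, Itgam and Mrc1 among them were below the level for testing, and Cd68 was higher with hairpin 2 (1.18, adjusted p = 3.3e-07). Array medians lay between 6.31 and 6.38, and the first repeat of hairpin 1 stood apart from its group, with a score of -9.39 on the second principal component against -24.4 and -21.5.

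A gene is called changed when its limma p-value, adjusted by the Benjamini-Hochberg method over all 12735 genes, is below 0.05. With hairpin 1, 10 of the 31 genes were higher and 4 were lower, while 23.7% of all tested genes were higher and 9.23% lower. With hairpin 2, 14 were higher and 3 were lower, against 21.5% higher and 13.3% lower over all genes. Set against each other, hairpin 2 was above hairpin 1 for 11 genes and below it for 3, against 11.6% and 17.4% of all genes. Most of the higher calls of that comparison were in the haem and quinone enzymes, the thioredoxin system and the glutathione transferases. The hairpin 1 counts were close to the background, so they are no result about these genes as a group.

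The median log2 difference of the 31 genes was 0.06 with hairpin 1 and 0.13 with hairpin 2, against 0.07 and 0.02 over all genes tested. The 2 comparisons share the scrambled arrays, so each gene's values are given side by side. Of all hairpin 1 calls, 72.0% were higher, and 59.1% when the deposited values were quantile normalized. The hairpin 1 counts depended on single arrays, and so did the counts over all genes. Without scrambled replicate 1 they were 6 higher and 2 lower, without scrambled replicate 2 they were 7 and 2, without hairpin 1 replicate 2 they were 7 and 2, and without hairpin 1 replicate 3 they were 6 and 3. Over all genes 17.4% to 17.9% were higher when any 1 of those 4 arrays was left out, rather than 23.7%. Without hairpin 1 replicate 1 the counts were 14 and 4, with 32.1% of all genes higher. In that setting 5 genes rather than 3 were lower with hairpin 2 than with hairpin 1, with 24.6% rather than 17.4% of all genes.

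**Figure D1:**
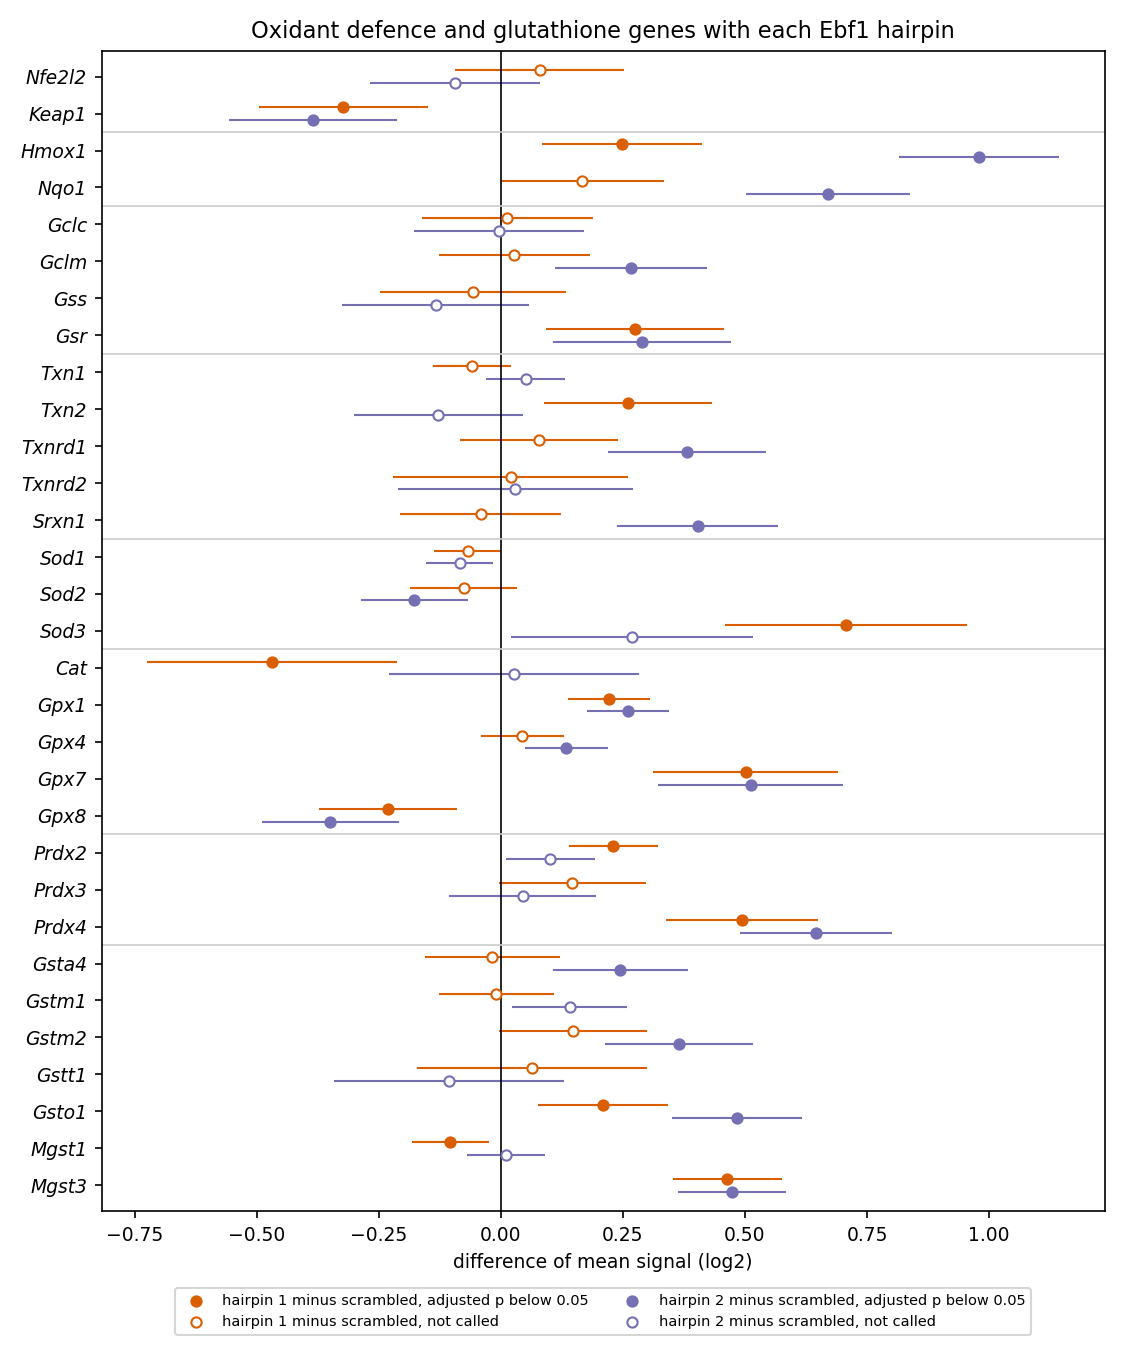
Difference of the mean log2 signal from scrambled for each of the 31 tested genes, grouped by role, with orange for hairpin 1 above purple for hairpin 2. Lines are 95% limma intervals and filled circles have an adjusted p below 0.05. Hmox1 with hairpin 2 lies farthest to the right at 0.98, and Cat with hairpin 1 farthest to the left at -0.47.

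Of the regulators, Keap1 fell with each hairpin, and Nfe2l2, the gene of NRF2, was not called in the main fit. Keap1 read 9.83, 10.01 and 9.99 log2 units with hairpin 1 and 9.82, 9.97 and 9.85 with hairpin 2, against 10.28, 10.25 and 10.26 with scrambled. Every hairpin array lay below every scrambled array. The fall was 1.25-fold with hairpin 1 (log2 difference -0.32, SE 0.081, limma adjusted p = 0.00618) and 1.31-fold with hairpin 2 (-0.38, adjusted p = 0.00145). A second Keap1 probe set differed by -0.16 and -0.18 with hairpins 1 and 2 and was not called. Nfe2l2 ranged from 10.90 to 11.21 with hairpin 1, 10.87 to 10.97 with hairpin 2 and 10.96 to 11.02 with scrambled. Its 95% intervals were -0.09 to 0.25 with hairpin 1 and -0.27 to 0.08 with hairpin 2. Without hairpin 1 replicate 1, Nfe2l2 was higher by 0.17 with hairpin 1 (adjusted p = 0.0415) and lower by -0.26 with hairpin 2 than with hairpin 1 (0.00475). With array quality weights those differences were 0.13 (limma adjusted p = 0.0275) and -0.23 (0.00304). Those weights gave hairpin 1 replicate 1 only 0.256, so both settings lean on the same other arrays. Without that array 32.1% of all genes were higher with hairpin 1, and 41.1% with the weights, rather than 23.7%.

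The enzymes of haem and quinone handling were higher with hairpin 2 than in either other group. Hmox1 encodes haem oxygenase 1, which breaks down haem and is a standard readout of NRF2 activity and of release from the repressor BACH1. It read 10.58, 10.75 and 10.84 with hairpin 1 and 11.46, 11.41 and 11.49 with hairpin 2, against 10.43, 10.51 and 10.49 with scrambled. All hairpin 2 arrays lay above all others, and the hairpin 1 arrays lay just above the scrambled ones. The rise was 1.97-fold with hairpin 2 (log2 difference 0.98, SE 0.077, limma adjusted p = 6.01e-08) and 1.19-fold with hairpin 1 (0.25, adjusted p = 0.0214). The hairpin 1 call was lost without scrambled replicate 1 (adjusted p = 0.0929), without scrambled replicate 3 (0.053) and without hairpin 1 replicate 3 (0.118). The hairpin 2 level was above that of hairpin 1 by 0.73 (1.66-fold, adjusted p = 3.87e-06).

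Nqo1 encodes the quinone reductase that uses NADPH or NADH to reduce quinones in a single step. It read 9.61, 9.57 and 9.47 with hairpin 1 and 10.04, 10.08 and 10.03 with hairpin 2, against 9.40, 9.38 and 9.36 with scrambled. The 3 groups did not overlap. Nqo1 rose 1.59-fold with hairpin 2 (log2 difference 0.67, SE 0.079, limma adjusted p = 5.62e-06), whereas the hairpin 1 difference of 0.17 was not called (adjusted p = 0.119). Between the hairpins the difference was 0.50, higher with hairpin 2 (adjusted p = 0.000171).

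Among the genes of glutathione synthesis and recycling, the modifier subunit of the rate-limiting enzyme and the reductase were called higher, and its catalytic subunit was not called. Gclm, the modifier subunit of glutamate-cysteine ligase, read 11.66, 11.87 and 11.97 with hairpin 1 and 12.05, 12.07 and 12.11 with hairpin 2, against 11.75, 11.80 and 11.87 with scrambled. Hairpin 2 arrays lay above the rest, and the hairpin 1 arrays spanned the scrambled range. Gclm rose 1.20-fold with hairpin 2 (log2 difference 0.27, SE 0.073, limma adjusted p = 0.00914) and differed by 0.03 with hairpin 1 (adjusted p = 0.811). Against hairpin 1, hairpin 2 was higher by 0.24 (adjusted p = 0.0217), a call lost without hairpin 2 replicate 1 (0.0506), without hairpin 2 replicate 3 (0.076), without the mean-variance trend (0.0511) and with array quality weights (0.11, adjusted p = 0.0998). A second Gclm probe set was not called against scrambled, at 0.19 with hairpin 2 (limma adjusted p = 0.324) and -0.30 with hairpin 1 (0.121). Between the hairpins it was called, higher by 0.49 with hairpin 2 (0.0172).

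Gclc, the catalytic subunit, ranged from 9.66 to 9.86 with hairpin 1, 9.71 to 9.77 with hairpin 2 and 9.72 to 9.76 with scrambled. Its 95% intervals were -0.16 to 0.19 with hairpin 1 and -0.18 to 0.17 with hairpin 2. Gss, glutathione synthetase, differed by -0.06 with hairpin 1 and -0.13 with hairpin 2 and was not called on its brightest probe set. Its other probe set was lower with hairpin 2 (-0.36, adjusted p = 0.0198), as was the mean of both (-0.25, 0.0282).

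Gsr, the glutathione reductase that regenerates glutathione with NADPH, was higher with each hairpin. It read 10.77, 10.92 and 11.02 with hairpin 1 and 10.94, 10.82 and 11.00 with hairpin 2, against 10.57, 10.56 and 10.75 with scrambled. Hairpin arrays lay above scrambled arrays, narrowly so for the first repeat of hairpin 1. The rise was 1.21-fold with hairpin 1 (log2 difference 0.27, SE 0.086, limma adjusted p = 0.0217) and 1.22-fold with hairpin 2 (0.29, adjusted p = 0.0145). The hairpin 1 call was lost without scrambled replicate 1 (0.093), scrambled replicate 2 (0.0946), hairpin 1 replicate 2 (0.0528) or hairpin 1 replicate 3 (0.111). The hairpin 2 call was lost without scrambled replicate 1 (0.0688), scrambled replicate 2 (0.0694) or hairpin 2 replicate 3 (0.0689). A second Gsr probe set was called higher with each hairpin.

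**Figure D2:**
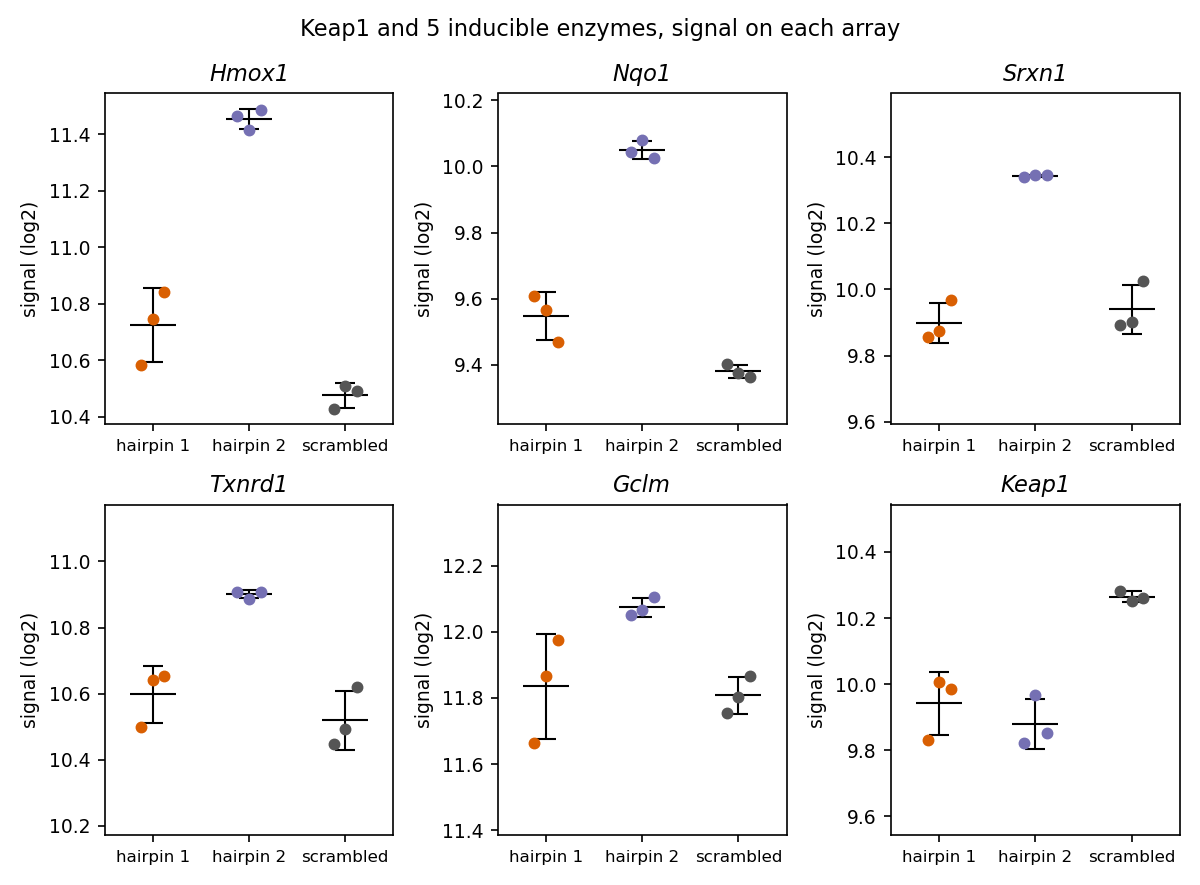
Signal of Keap1 and 5 inducible enzymes on each array in log2 units; each panel has its own vertical axis, which does not start at 0. Points are the 3 arrays of hairpin 1, hairpin 2 and scrambled, and black bars are means with SD. In the Hmox1, Nqo1, Srxn1, Txnrd1 and Gclm panels the hairpin 2 points lie above all others, and in the Keap1 panel both hairpin groups lie below scrambled.

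In the thioredoxin system, the cytosolic reductase and sulfiredoxin were higher with hairpin 2, and mitochondrial thioredoxin was higher with hairpin 1. Txnrd1, the cytosolic thioredoxin reductase, read 10.50, 10.64 and 10.65 with hairpin 1 and 10.91, 10.89 and 10.91 with hairpin 2, against 10.45, 10.49 and 10.62 with scrambled. The hairpin 2 arrays lay above the rest and the other groups overlapped. Txnrd1 rose 1.30-fold with hairpin 2 (log2 difference 0.38, SE 0.076, limma adjusted p = 0.000917), with a hairpin 1 difference of 0.08 (adjusted p = 0.475). The probe sets disagreed: a second tested one differed by -0.13 with hairpin 2, and the mean of all probe sets gave 0.10 (adjusted p = 0.332). Hairpin 2 exceeded hairpin 1 by 0.30 on the brightest probe set (adjusted p = 0.00693) and by 0.10 for the mean of all (0.362).

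Srxn1 encodes sulfiredoxin, which restores peroxiredoxins that hydrogen peroxide has over-oxidised. Its brightest probe set, which can share probes with other transcripts, read 9.85, 9.87 and 9.97 with hairpin 1 and 10.34, 10.34 and 10.35 with hairpin 2, against 9.89, 9.90 and 10.02 with scrambled. Hairpin 2 arrays stood together above both other groups, which overlapped. Srxn1 rose 1.32-fold with hairpin 2 (log2 difference 0.40, SE 0.078, limma adjusted p = 0.000677), with a hairpin 1 difference of -0.04 (adjusted p = 0.728). Hairpin 2 exceeded hairpin 1 by 0.44 (1.36-fold, adjusted p = 0.000454). Of the 4 Srxn1 probe sets, 3 were called higher with hairpin 2 and 1 with hairpin 1, in a fit of 27254 probe sets that called 29.9% with hairpin 2, 26.4% with hairpin 1 and 22.5% between the hairpins, in either direction.

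Txn2, mitochondrial thioredoxin, read 11.54, 11.87 and 11.85 with hairpin 1 and 11.42, 11.33 and 11.35 with hairpin 2, against 11.47, 11.50 and 11.51 with scrambled. Hairpin 1 arrays lay above scrambled arrays and hairpin 2 arrays below them. Txn2 rose 1.20-fold with hairpin 1 (log2 difference 0.26, SE 0.081, limma adjusted p = 0.0219), and the hairpin 2 difference of -0.13 was not called (adjusted p = 0.26). Hairpin 2 was below hairpin 1 by -0.39 (1.31-fold, adjusted p = 0.00195), on 3 of 3 probe sets. The hairpin 1 call was lost without scrambled replicate 1 (0.0759), scrambled replicate 2 (0.0588), hairpin 1 replicate 2 (0.0971) or hairpin 1 replicate 3 (0.105), although all 3 probe sets called it in the fit of probe sets.

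Txn1, cytosolic thioredoxin, was not called with either hairpin in the main fit. It was called lower with hairpin 1 after quantile normalization (-0.09, limma adjusted p = 0.0455) and with equal array medians (-0.10, 0.0434). The same held with array quality weights (-0.06, 0.0487). It read 13.53, 13.65 and 13.58 with hairpin 1 and 13.70, 13.70 and 13.69 with hairpin 2, against 13.64, 13.65 and 13.65 with scrambled. Hairpin 2 exceeded hairpin 1 by 0.11 (limma adjusted p = 0.0398), and this call was lost when any 1 of 8 arrays was left out, all but hairpin 1 replicate 2, with adjusted p up to 0.112. Txnrd2, mitochondrial thioredoxin reductase, differed by 0.02 and 0.03 with hairpins 1 and 2 on its brightest probe set. A dimmer Txnrd2 probe set read 8.14, 8.32 and 8.01 with hairpin 1 and 7.35, 7.42 and 7.31 with hairpin 2, against 7.90, 7.95 and 7.89 with scrambled. That probe set was lower with hairpin 2 (-0.55, adjusted p = 0.000608), so the Txnrd2 probe sets do not give the same answer.

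The 3 superoxide dismutases turn superoxide into hydrogen peroxide in the cytosol, in mitochondria and outside the cell, and they behaved differently. Sod3, the secreted form, read 12.00, 11.89 and 12.44 with hairpin 1 and 11.69, 11.54 and 11.77 with hairpin 2, against 11.24, 11.41 and 11.55 with scrambled. Hairpin 1 arrays were highest, and the lowest hairpin 2 array overlapped the scrambled range. Sod3 rose 1.63-fold with hairpin 1 (log2 difference 0.71, SE 0.116, limma adjusted p = 0.000241), and the hairpin 2 difference was 0.27 (adjusted p = 0.0892). The hairpin 2 difference was called with array quality weights (0.0425) and without hairpin 1 replicate 3 (0.0212). Hairpin 2 was below hairpin 1 by -0.44 (adjusted p = 0.00998).

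Sod2, the mitochondrial manganese enzyme, read 13.49, 13.31 and 13.45 with hairpin 1 and 13.34, 13.23 and 13.37 with hairpin 2, against 13.46, 13.48 and 13.53 with scrambled. Hairpin 2 arrays lay below the scrambled ones and hairpin 1 arrays overlapped both. Sod2 was 1.13-fold lower with hairpin 2 (log2 difference -0.18, SE 0.052, limma adjusted p = 0.0132), and 3 of its 4 probe sets were called lower. The call was lost without scrambled replicate 3 (0.0598), without hairpin 2 replicate 2 (0.0736) and without the mean-variance trend (0.0867). Sod1, the cytosolic copper-zinc enzyme, read 14.23 to 14.31 with hairpin 1, 14.23 to 14.28 with hairpin 2 and 14.33 to 14.38 with scrambled. Neither hairpin group overlapped the scrambled one, but the differences of -0.07 (adjusted p = 0.123) and -0.08 (0.0565) were not called. This probe set lies near the top of the array's range, where differences are compressed. With hairpin 2, 2 of the 4 tested Sod1 probe sets were called lower, by -0.57 (limma adjusted p = 0.00125) and -0.15 (0.0269). The latter was also called lower with hairpin 1 (-0.13, 0.0462). The former was lower with hairpin 2 than with hairpin 1 (-0.42, 0.0125). Sod1 was called lower with hairpin 2 under equal array medians (0.0308), a filter at the 50th percentile (0.0329), the mean of all probe sets (0.0341), array quality weights (0.0146), and without hairpin 1 replicate 1 (0.0311). With equal array medians it was also lower with hairpin 1 (-0.11, 0.0185).

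Catalase and the glutathione peroxidases break down hydrogen peroxide or lipid peroxides, and they showed calls in both directions. Cat, the peroxisomal enzyme, read 12.82, 12.11 and 12.25 with hairpin 1 and 12.90, 12.86 and 12.90 with hairpin 2, against 12.84, 12.93 and 12.82 with scrambled. The first repeat of hairpin 1 lay within the scrambled range, and its other repeats were low. Cat fell 1.38-fold with hairpin 1 (log2 difference -0.47, SE 0.121, limma adjusted p = 0.00715) and differed by 0.03 with hairpin 2 (adjusted p = 0.902). The hairpin 1 call was lost without hairpin 1 replicate 2 (-0.33, adjusted p = 0.0517). The other Cat probe set had the same pattern over the arrays, at 12.90, 11.40 and 11.77 with hairpin 1, 12.96, 12.83 and 12.86 with hairpin 2 and 12.75, 13.08 and 12.69 with scrambled. Cat was higher with hairpin 2 than with hairpin 1 by 0.49 (adjusted p = 0.00571).

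Gpx1, the abundant cytosolic and mitochondrial selenoenzyme, read 13.78, 13.88 and 13.87 with hairpin 1 and 13.89, 13.83 and 13.92 with hairpin 2, against 13.63, 13.63 and 13.61 with scrambled. Every hairpin array lay above every scrambled array. Gpx1 rose 1.17-fold with hairpin 1 (log2 difference 0.22, SE 0.039, limma adjusted p = 0.000452) and 1.20-fold with hairpin 2 (0.26, adjusted p = 7.39e-05). Gpx4, which reduces lipid hydroperoxides in membranes, read 14.12, 14.24 and 14.27 with hairpin 1 and 14.28, 14.35 and 14.26 with hairpin 2, against 14.14, 14.18 and 14.17 with scrambled. Hairpin 2 arrays lay above scrambled arrays by a small margin, 1.10-fold (log2 difference 0.13, limma adjusted p = 0.0153), and the hairpin 1 difference was 0.04 (0.434). The Gpx4 call was lost without scrambled replicate 1 (0.0621), without hairpin 2 replicate 2 (0.0783), for the mean of all probe sets (0.141) and without the mean-variance trend (0.163). The Gpx4 signal, like that of Sod1, lies near the top of the array's range, where differences are compressed. Gpx3, the secreted plasma form, lay between 5.30 and 5.84 on all arrays, below the level of 5.72 on average, and was not tested.

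The endoplasmic reticulum enzymes Gpx7 and Gpx8, which use peroxide in the oxidative folding of proteins, moved apart. Gpx7 read 10.52, 10.85 and 10.78 with hairpin 1 and 10.67, 10.76 and 10.75 with hairpin 2, against 10.28, 10.15 and 10.22 with scrambled. Gpx8 read 11.83, 12.04 and 11.98 with hairpin 1 and 11.76, 11.88 and 11.86 with hairpin 2, against 12.22, 12.21 and 12.12 with scrambled. For Gpx7 every hairpin array was above every scrambled array, and for Gpx8 every hairpin array was below. Gpx7 rose 1.42-fold with hairpin 1 (log2 difference 0.50, SE 0.089, limma adjusted p = 0.000462) and 1.43-fold with hairpin 2 (0.51, adjusted p = 0.000275). Gpx8 fell 1.17-fold with hairpin 1 (-0.23, SE 0.066, adjusted p = 0.0136) and 1.27-fold with hairpin 2 (-0.35, adjusted p = 0.00058). The hairpin 1 call for Gpx8 was lost without scrambled replicate 1 (0.065) and without scrambled replicate 2 (0.0572).

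**Figure D3:**
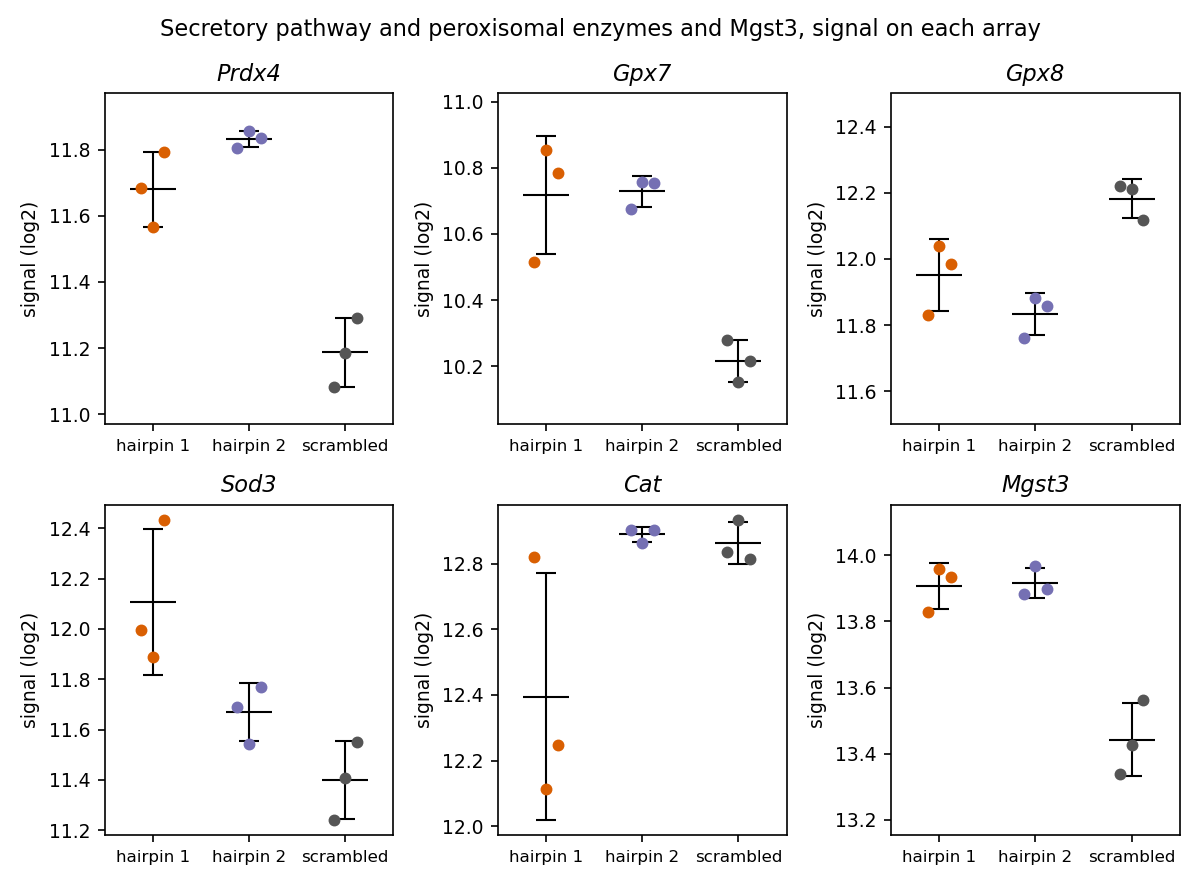
Signal of Prdx4, Gpx7, Gpx8, Sod3, Cat and Mgst3 on each array in log2 units; each panel has its own vertical axis, which does not start at 0. Points are arrays of hairpin 1, hairpin 2 and scrambled, and black bars are means with SD. Prdx4, Gpx7 and Mgst3 points of both hairpins lie above scrambled, Gpx8 points below, and in the Cat panel the first repeat of hairpin 1 lies at 12.82, near the scrambled arrays, while its other repeats lie at 12.11 and 12.25.

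Of the 6 peroxiredoxins listed, 3 were tested. Prdx4, the form of the secretory pathway, read 11.68, 11.57 and 11.79 with hairpin 1 and 11.81, 11.86 and 11.84 with hairpin 2, against 11.08, 11.19 and 11.29 with scrambled. Every hairpin array lay above every scrambled array. Prdx4 rose 1.41-fold with hairpin 1 (log2 difference 0.49, SE 0.073, limma adjusted p = 9e-05) and 1.56-fold with hairpin 2 (0.65, adjusted p = 3.79e-06). Its other 2 tested probe sets were not called against scrambled: they differed by -0.14 and -0.05 with hairpin 1 and by 0.52 and 0.28 with hairpin 2. For the mean of all probe sets the hairpin 1 difference was 0.13 (adjusted p = 0.254).

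Prdx2, a cytosolic form, read 13.96, 13.83 and 14.01 with hairpin 1 and 13.81, 13.80 and 13.81 with hairpin 2, against 13.69, 13.70 and 13.71 with scrambled. The groups did not overlap, with hairpin 1 on top. Prdx2 rose 1.17-fold with hairpin 1 (log2 difference 0.23, SE 0.043, limma adjusted p = 0.00063), and the hairpin 2 difference of 0.10 was not called (0.0797). Hairpin 2 was below hairpin 1 by -0.13 (limma adjusted p = 0.0321). That call was lost in 10 of 17 alternatives, with adjusted p up to 0.311. Leaving out hairpin 1 replicate 1 or 3, or any 1 hairpin 2 array, ended it, with adjusted p up to 0.166. Quantile normalization (0.0678) and equal array medians (0.121) also ended it. So did no low-signal filter, the mean of all probe sets and no mean-variance trend. A second Prdx2 probe set was not called in any comparison, and differed by 0.16 with hairpin 1 (limma adjusted p = 0.23). Prdx3, the mitochondrial form, ranged from 12.32 to 12.56 with hairpin 1, 12.26 to 12.48 with hairpin 2 and 12.25 to 12.36 with scrambled, and was not called in the main fit. With array quality weights Prdx3 was higher by 0.18 with hairpin 1 (limma adjusted p = 0.0026). Without hairpin 1 replicate 1 it was higher by 0.22 (0.0163). With those weights it was also lower by -0.16 with hairpin 2 than with hairpin 1 (0.0219). Prdx1 was not tested, because its probe sets also name another gene, Gm21399, and Prdx5 and Prdx6 were not analysed here.

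Glutathione transferases join glutathione to electrophiles, and the membrane-bound members also reduce lipid peroxides. Of the 7 listed, 2 were higher and 1 was lower with hairpin 1, and 4 were higher with hairpin 2. Over all genes 23.7% were higher with hairpin 1, which 2 of 7 is near, and 21.5% with hairpin 2. Mgst3, a microsomal form, read 13.83, 13.96 and 13.93 with hairpin 1 and 13.88, 13.97 and 13.90 with hairpin 2, against 13.34, 13.43 and 13.56 with scrambled. Every hairpin array lay above every scrambled array. Mgst3 rose 1.38-fold with hairpin 1 (log2 difference 0.46, SE 0.052, limma adjusted p = 6.25e-06) and 1.39-fold with hairpin 2 (0.47, adjusted p = 2.81e-06). A second Mgst3 probe set differed by 0.27 and 0.30 and was not called.

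Gsto1, an omega-class enzyme that also reduces dehydroascorbate, read 12.55, 12.73 and 12.78 with hairpin 1 and 12.98, 12.96 and 12.94 with hairpin 2, against 12.40, 12.46 and 12.57 with scrambled. Hairpin 2 arrays lay above all others, and the first repeat of hairpin 1 overlapped the scrambled range. Gsto1 rose 1.40-fold with hairpin 2 (log2 difference 0.48, SE 0.062, limma adjusted p = 1.43e-05) and 1.16-fold with hairpin 1 (0.21, adjusted p = 0.0168). With hairpin 2 it was above hairpin 1 by 0.27 (adjusted p = 0.00353). The hairpin 1 call was lost without scrambled replicate 1 (0.0886), scrambled replicate 2 (0.058), hairpin 1 replicate 2 (0.0632) or hairpin 1 replicate 3 (0.0897). It was also lost for the mean of all probe sets (0.252) and without the mean-variance trend (0.0625). A second Gsto1 probe set was not called in any comparison. It differed by 0.26 with hairpin 2 (limma adjusted p = 0.105), by -0.01 with hairpin 1 and by 0.26 between the hairpins (0.111).

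Gsta4, which conjugates the lipid peroxidation product hydroxynonenal, and Gstm2, a mu-class enzyme, were higher with hairpin 2. Gsta4 read 11.69, 11.86 and 11.85 with hairpin 1 and 12.02, 12.11 and 12.06 with hairpin 2, against 11.79, 11.77 and 11.90 with scrambled. Gstm2 read 11.72, 11.75 and 11.96 with hairpin 1 and 11.96, 12.10 and 12.02 with hairpin 2, against 11.61, 11.71 and 11.67 with scrambled. In both genes all hairpin 2 arrays exceeded all scrambled arrays. Gsta4 rose 1.19-fold with hairpin 2 (log2 difference 0.25, SE 0.065, limma adjusted p = 0.00745) and exceeded hairpin 1 by 0.26 (0.00635), with a hairpin 1 difference of -0.02. Gstm2 rose 1.29-fold with hairpin 2 (0.36, SE 0.071, adjusted p = 0.000743), with a hairpin 1 difference of 0.15 (0.126). That hairpin 1 difference was called with array quality weights (0.28, limma adjusted p = 0.000132) and without hairpin 1 replicate 1 (0.20, 0.0333). For Gstm2, hairpin 2 exceeded hairpin 1 by 0.22 (0.0317), a call lost without hairpin 1 replicate 1 (0.0691), hairpin 1 replicate 2 (0.0951), hairpin 2 replicate 2 (0.12) or hairpin 2 replicate 3 (0.0752). It was also lost without the mean-variance trend (0.0658) and with array quality weights, where the difference was 0.07 (0.333).

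Mgst1, another microsomal form, read 14.31, 14.25 and 14.26 with hairpin 1 and 14.40, 14.42 and 14.34 with hairpin 2, against 14.36, 14.45 and 14.32 with scrambled. Hairpin 1 arrays lay below scrambled arrays, and hairpin 2 arrays overlapped them. The Mgst1 signal, like that of Sod1, lies near the top of the array's range, where differences are compressed. The hairpin 1 fall was 1.07-fold (log2 difference -0.10, SE 0.037, limma adjusted p = 0.0427), and it was lost in 8 of 17 alternatives, with adjusted p up to 0.383; leaving out scrambled replicate 1 or 2, hairpin 1 replicate 2 or 3, or hairpin 2 replicate 1 each ended it. Hairpin 2 exceeded hairpin 1 by 0.11 (adjusted p = 0.03), lost in 7 of 17 alternatives. Gstm1, whose probe set can share probes with other mu-class transcripts, differed by -0.01 with hairpin 1 and 0.14 with hairpin 2 (adjusted p = 0.0602). Its hairpin 2 difference was called after quantile normalization (limma adjusted p = 0.0283), with array quality weights (0.0114) and without hairpin 1 replicate 1 (0.0189). Its difference of 0.15 between the hairpins (0.053) was called in 4 alternatives. Gstt1, a theta-class enzyme, ranged from 9.22 to 9.66 with hairpin 1, 9.23 to 9.46 with hairpin 2 and 9.39 to 9.49 with scrambled, and was not called in the main fit. With array quality weights Gstt1 was higher by 0.16 with hairpin 1 (limma adjusted p = 0.0426). It was then lower by -0.28 with hairpin 2 than with hairpin 1 (0.00631). Without hairpin 1 replicate 1 that difference was -0.31 (0.0135).

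The calls of the genes with TGACNNNGC in a promoter window were mixed. Gclm, Srxn1 and Txnrd1 rose with hairpin 2, Mgst1 fell with hairpin 1, Nfe2l2 and Sod1 were not called on their brightest probe sets with either hairpin, and Prdx1 was not tested. Nqo1, which rose with hairpin 2, has no such letters in its window, and no window was found for Hmox1. Whether the letters go with the calls was not tested.

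Other genes of oxidant handling were listed by role: 95 genes in 7 lists, of which 78 were tested. With hairpin 1, 30 were higher and 4 lower, and with hairpin 2, 24 were higher and 16 lower, while over all genes 23.7% were higher and 9.23% lower with hairpin 1 and 21.5% and 13.3% with hairpin 2. The counts of single lists that follow are small and stand beside those same shares. The median log2 differences of the 78 genes were 0.14 with hairpin 1 and 0.10 with hairpin 2, against 0.07 and 0.02 over all genes. Hairpin 2 was above hairpin 1 for 8 of them and below it for 20, against 11.6% and 17.4% of all genes.

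Partners of NRF2 and related factors had 2 of 11 genes higher with hairpin 1, and 1 higher and 2 lower with hairpin 2. Cul3, the ubiquitin ligase scaffold to which KEAP1 brings NRF2, was higher by 0.26 with each hairpin (limma adjusted p = 0.00453 and 0.00371). Mafk, a small MAF partner of NRF2, was higher by 0.44 with hairpin 1 (0.00165) and differed by 0.14 with hairpin 2 (0.292). Foxo1, a forkhead factor that regulates antioxidant and metabolic genes, was lower by -0.36 with hairpin 2 (0.00637) and differed by 0.07 with hairpin 1.

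Of 9 other NRF2 target genes tested, 3 were higher and 1 lower with hairpin 1, and 2 were higher and 3 lower with hairpin 2. The 2 higher with hairpin 2 were Abcc1 (0.32, limma adjusted p = 0.000695) and Blvrb (0.47, 0.00038). Both were also higher with hairpin 1, by 0.18 (0.0401) and 0.30 (0.0136). Ephx1, microsomal epoxide hydrolase, read 11.35, 11.56 and 11.49 with hairpin 1 and 10.67, 10.71 and 10.72 with hairpin 2, against 11.91, 11.86 and 12.07 with scrambled. The 3 groups did not overlap. It was 1.40-fold lower with hairpin 1 (log2 difference -0.49, limma adjusted p = 0.000131) and 2.37-fold lower with hairpin 2 (-1.25, adjusted p = 2.19e-09). Osgin1, an oxidative-stress-induced growth inhibitor, was lower by -0.56 with hairpin 2 (0.000233). Slc7a11, the cystine importer that feeds glutathione synthesis, was higher by 0.35 with hairpin 1 (0.00486) and differed by -0.13 with hairpin 2 (0.297).

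Genes of NADPH supply, which feeds glutathione and thioredoxin reductases, had 5 of 9 higher and 1 lower with each hairpin. The lower gene was not the same. With hairpin 1 it was Nnt, described below. With hairpin 2 it was Idh2 (-0.22, limma adjusted p = 0.0342), which differed by 0.19 with hairpin 1 (0.0762). Pgls, of the pentose phosphate pathway, was higher by 0.43 and 0.39 with hairpins 1 and 2 (limma adjusted p = 0.00106 and 0.00206). Me1, cytosolic malic enzyme, was higher by 0.32 and 0.15 (0.000142 and 0.0281). Me2, a mitochondrial malic enzyme, was higher by 0.47 and 0.38 (0.000579 and 0.00248). Me2 is counted in this list although its enzyme mainly uses NAD rather than NADP.

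Of 12 other glutathione transferases tested, 5 were higher and 0 lower with each hairpin, where 23.7% and 21.5% of all genes were higher with hairpins 1 and 2. Gsto2, the second omega-class gene, read 7.49, 7.95 and 7.67 with hairpin 1 and 9.13, 8.98 and 9.09 with hairpin 2, against 7.10, 7.09 and 7.12 with scrambled. The 3 groups stood apart. Gsto2 rose 1.52-fold with hairpin 1 (log2 difference 0.60, limma adjusted p = 0.000448) and 3.91-fold with hairpin 2 (1.97, adjusted p = 6.51e-10), and hairpin 2 exceeded hairpin 1 by 1.36 (1.63e-07). Gstt3, of the theta class, was higher by 0.91 and 1.06 with hairpins 1 and 2 (3.04e-08 and 2.09e-09). Gsta3, of the alpha class, was higher by 1.00 with hairpin 2 (6.27e-06) and differed by 0.14 with hairpin 1 (0.387).

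Glutathione turnover and glutaredoxin genes had 4 of 15 higher and 0 lower with hairpin 1, and 2 higher and 5 lower with hairpin 2. Glrx2, a mitochondrial glutaredoxin, read 11.59, 11.62 and 11.50 with hairpin 1 and 11.04, 11.07 and 11.02 with hairpin 2, against 11.36, 11.41 and 11.38 with scrambled. Its hairpin 1 arrays lay above and its hairpin 2 arrays below the scrambled ones. Glrx2 was called in opposite directions, 0.19 with hairpin 1 (limma adjusted p = 0.0302) and -0.33 with hairpin 2 (0.000568). Glrx5, which takes part in iron-sulfur cluster assembly, was lower by -0.36 with hairpin 2 (0.00016) and differed by 0.14 with hairpin 1. Hagh, the second glyoxalase, was lower by -0.34 with hairpin 2 (0.000654) and differed by 0.17 with hairpin 1.

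Thioredoxin-linked and methionine repair genes had 7 of 14 higher and 1 lower with hairpin 1, and 5 higher and 4 lower with hairpin 2. Msra, which repairs oxidised methionine, was higher by 0.60 and 0.62 with hairpins 1 and 2 (limma adjusted p = 4.22e-05 and 2.06e-05). Nxn, nucleoredoxin, was higher by 0.62 and 0.53 (0.000214 and 0.000529). Txndc17, a cytosolic thioredoxin-related protein, was lower by -0.36 with hairpin 2 (6.63e-05) and differed by 0.14 with hairpin 1.

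Of the oxidant sources and metal buffers, 4 of 8 were higher and 1 lower with each hairpin. Nox4, an NADPH oxidase that releases hydrogen peroxide, read 8.00, 7.98 and 8.07 with hairpin 1 and 7.98, 7.87 and 8.26 with hairpin 2, against 6.80, 6.59 and 6.13 with scrambled. Xdh, the xanthine oxidoreductase that also produces oxidants, read 11.46, 11.72 and 11.76 with hairpin 1 and 11.73, 11.96 and 11.75 with hairpin 2, against 12.81, 12.88 and 12.91 with scrambled. Hairpin and scrambled arrays did not overlap in either gene. Nox4 was 2.84-fold and 2.89-fold higher with hairpins 1 and 2 (log2 difference 1.51 and 1.53, limma adjusted p = 8.97e-07 and 4.05e-07). Xdh was 2.33-fold and 2.07-fold lower (-1.22 and -1.05, adjusted p = 1.79e-08 and 4.5e-08). Mt1, a metallothionein, was higher by 0.26 with hairpin 1 (0.000154) and 0.62 with hairpin 2 (7.66e-09).

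**Figure D4:**
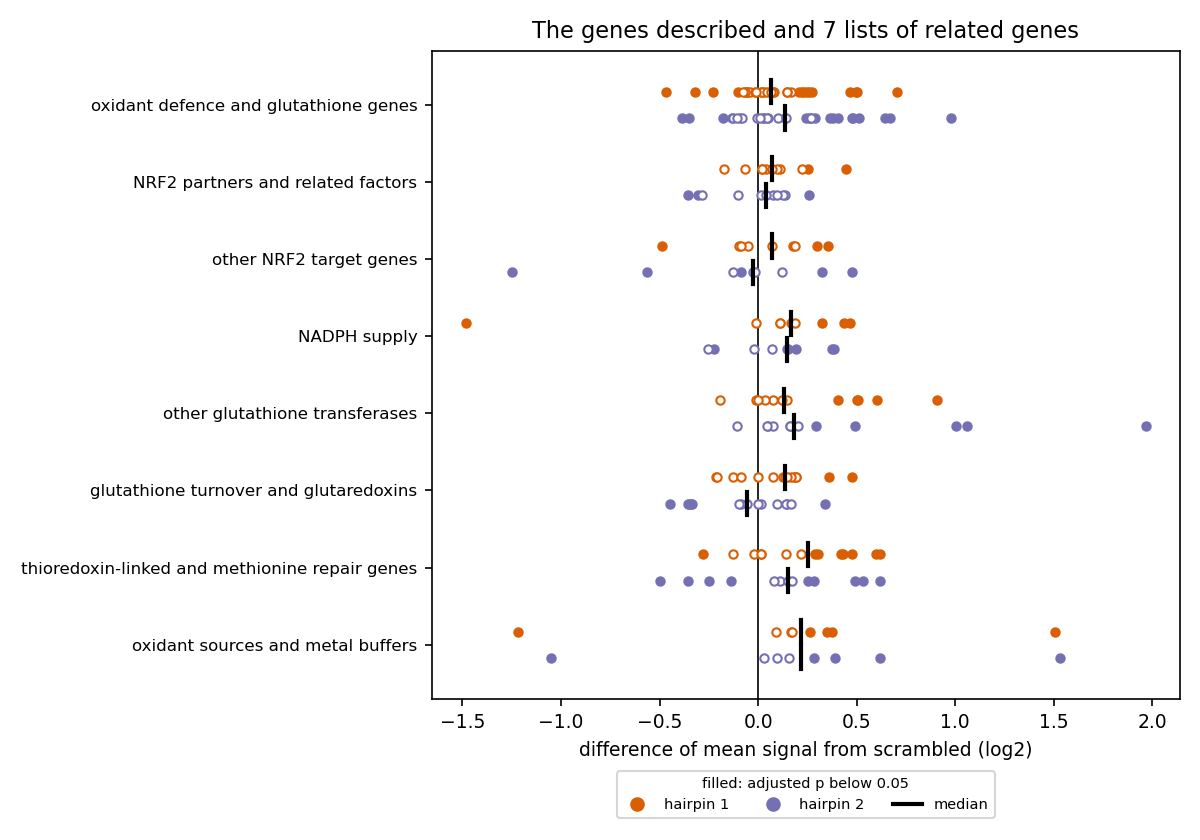
Difference of the mean log2 signal from scrambled for the 31 genes described and for the tested genes of 7 related lists, with hairpin 1 in orange above hairpin 2 in purple. Each circle is a gene, filled where the adjusted p was below 0.05, and black lines are list medians. Gsto2 with hairpin 2 lies farthest to the right at 1.97, and both hairpins have an outlying gene on each side among the oxidant sources, Xdh to the left and Nox4 to the right.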

How the data were processed

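Expression was measured on 9 arrays of 3T3-L1 adipocytes. The deposited values are log2 signals, 1 per probe set and array, which the authors made with RMA, per the submitters' processing notes; its version and settings are not given in the sources used here. Of 45101 probe sets, 64 controls were left out; 34945 of the rest name 1 symbol, 932 several and 9160 none. Entrez identifiers of 34741 were found in the GRCm38.p6 gene table, and 0 value columns lacked a sample. Genes whose mean reached the 30th percentile of gene means (5.72) were tested. A limma 3.58.1 model (R 4.3.3; lmFit, eBayes with trend) covered the 3 groups and 9 arrays, two-sided, with Benjamini-Hochberg adjustment over all genes, and calls at an adjusted p below 0.05; folds are antilogs of log2 differences. The same fit was run on all probe sets above that level. The steps were tested on simulated data. Named genes are the 35 listed, Ebf1, markers needed to check the cells, and from each related list the 3 tested genes with the smallest F-test p for both hairpins. Abcc1, Blvrb, Idh2 and Nnt were named after their values were seen. Members and lists were chosen with earlier results of these data known. Alternatives were other normalizations, filters, probe-set rules, variance models, a replicate block and each array left out. The array values name no genome build, so only RefSeq promoters have coordinates.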

Additional observations from a re-analysis of the deposited data

Results flagged for a closer look

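Glrx2 is listed because the hairpins moved it in opposite directions, with a difference of -0.52 log2 units between hairpin 2 and hairpin 1 (limma adjusted p = 1.38e-05) and no overlap among the 3 groups of arrays. Prdx1, a cytosolic peroxiredoxin and known NRF2 target, could not be assigned a probe set of its own, because its 5 probe sets also name Gm21399. They are listed because 3 of them were higher with hairpin 2 all the same, in the fit of all probe sets. The probe set with the smallest p read 13.70, 13.73 and 13.76 with hairpin 1 and 13.93, 14.02 and 13.98 with hairpin 2, against 13.65, 13.62 and 13.68 with scrambled, a hairpin 2 difference of 0.33 (limma adjusted p = 1.62e-05). A pair of others were higher by 0.29 (0.000111) and 0.14 (0.00766) with hairpin 2. The last 2 differed by 0.30 (0.0711) and 0.35 (0.106), and 0 of the 5 were called with hairpin 1 by limma.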

How the results depend on the processing

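Of 45 calls over the 3 comparisons, 27 were kept under all 17 alternatives, 18 were lost under at least 1 and 0 reversed. A further 23 calls appeared under at least 1. Among these, array quality weights called Gclm (limma adjusted p = 0.0108), Txnrd1 (0.038) and Gpx4 (0.00348) higher with hairpin 1. For hairpin 1, 17 genes rather than 10 were higher with array quality weights, which gave hairpin 1 replicate 3 a weight of 5.35 and replicate 1 one of 0.256; 41.1% rather than 23.7% of all genes were then higher. Leaving out single arrays gave 6 to 14 higher and 2 to 4 lower. With the mean of all probe sets 5 rather than 3 genes were lower with hairpin 2. Between the hairpins, 7 genes rather than 11 were higher for hairpin 2 without the mean-variance trend, 8 rather than 3 were lower with array quality weights (29.9% rather than 17.4% of all genes), and 2 to 5 were lower when single arrays were left out. The cause was not tested. Repeat numbers were not shown to pair the arrays. Deviations of same-numbered arrays correlated at 0.23, 0.16 and -0.15 between hairpin 1 and hairpin 2. Between a hairpin and scrambled they correlated at -0.29 to 0.25. With 3 arrays per group such correlations cannot exclude a pairing. With the replicate block, 10 genes were higher and 4 lower with hairpin 1, 15 and 4 with hairpin 2 (adding Sod1, adjusted p = 0.048, and Sod3, 0.0181), and 11 and 3 between the hairpins. The number of arrays limits what small differences can show.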

Other observations

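Nnt, named here after its values were seen, encodes the mitochondrial transhydrogenase that makes NADPH. It read 11.00, 8.99 and 9.08 log2 units with hairpin 1 and 11.01, 10.89 and 10.85 with hairpin 2, against 11.12, 11.44 and 10.95 with scrambled. The first repeat of hairpin 1 lay within the scrambled range and its other repeats were low, which is also how Cat stood over the same arrays. The hairpin 1 difference was -1.48 (SE 0.350, limma adjusted p = 0.00401), and the hairpin 2 difference of -0.26 was not called (0.64).

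Within the hairpin 1 group the first repeat deviated from the group mean by a median of -0.095 log2 units over the 31 genes, and its other repeats by 0.040 and 0.056. Its largest deviation was that of Cat, at 0.43.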
